A study of Dreissena polymorpha with 10 samples.

Results

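Zebra mussels (Dreissena polymorpha, a freshwater bivalve) collected in September, during gonad resorption, were compared with mussels collected in June, during spawning, at Riba-Roja on the Ebro River. The comparison takes 8 of the 10 arrays of the study, chosen by their titles: 2 September females, 2 September males, 2 June females and 2 June males. The other 2 arrays, 1 of a February female and 1 of a February male sample from before spawning, served as another time point and also entered the scaling, the filter and the fit. Each array was hybridised with Cy3-labelled RNA of part of the body, so that gonad and other tissues were measured together. The labels do not give the number of animals behind an array, so p-values reflect how far these arrays spread, which may be technical. Month and reproductive stage cannot be told apart, since each stage was sampled in 1 month.

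In bivalves the sexes usually shed eggs and sperm into the water, and the gonad fills and empties with the season. During spawning the gonad holds ripe gametes. During resorption the remaining gametes are broken down and taken up by other cells, and the gonad shrinks until the next cycle begins. In RNA of a body part, fewer cells of a type and less RNA per cell cannot be told apart.

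The array carries 13654 probes for 3541 transcripts, which are identified by sequence accessions. None of these accessions matched the RefSeq gene table (0 matches), so apart from RXR, the retinoid X receptor, transcripts are given by accession without a gene name or function. No sequence of a probe or transcript was available for printing.

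Values are log2 signals relative to a bright point of each array, the 75th percentile over 2738 probes detected well above background on each of the 10 arrays. A value of -5 therefore lies 5 log2 units below that point. Tests covered 5139 probes of 2198 accessions, those well above background on at least 2 arrays, and a probe was called at an adjusted p under 0.05 in limma. The mean processed signal of September female replicate 2 was 766, against 8138 to 10999 for the other 9 arrays, and its spike-in controls were dimmer too. On that array 22.4% of probes were well above background, against 28.9% to 36.0% on the others. The second September array of each sex lay on a slide of its own and was scanned on a second date. The other 8 arrays shared 1 slide and scan date. With the slide as a block, each of those second arrays takes a term of its own. That fit leaves 1 September array per sex and 2 residual degrees of freedom. Fewer calls under it therefore cannot be read as a measure of the slide. The median SD between replicates was 0.53 log2 units in September females and 0.33 in September males, against 0.24 in June females and 0.29 in June males. Arrays correlated at 0.928 to 0.962 within September, at 0.951 to 0.974 within June and at 0.908 to 0.950 between the seasons.

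With the sexes weighted equally, 712 of 5139 probes (13.9%) differed between September and June, and they belong to 383 accessions. In September 387 probes (7.53%) of 227 accessions were higher and 325 probes (6.32%) of 160 accessions were lower. The falls were the larger changes. The median called probe was 3.41-fold higher among the rises and 4.21-fold lower among the falls. A change of more than 3 log2 units was reached by 29 higher and 111 lower probes, and one of more than 5 by 0 higher and 22 lower probes. The 4 September and 4 June arrays did not overlap in 692 of the 712 called probes, beside 24.9% of all tested probes. The median log2 fold change over all tested probes was 0.08. On the 8 arrays of slide 1 (2 September, 4 June and 2 February arrays), a model with additive season and sex called 562 probes, of which 248 were higher and 314 lower. Without the February arrays, also for the scaling and the filter, 750 of 4994 tested probes were called.

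The number of calls rested on single arrays. Leaving out 1 array at a time gave 144 to 934 calls, with the fewest without June female replicate 1 and the most without September female replicate 1. The fit called 206 probes when September male replicate 2 was left out and 404 when replicate 1 of that group was. It called 224 and 213 when June male replicate 1 or 2 was left out, and 415 with June female replicate 2 absent. The dim array, September female replicate 2, changed the count less, to 552. In each of these 8 fits 130 probes were called, 28 higher and 102 lower, and they belong to 74 accessions. With the slide as a block 128 probes passed, 26 higher and 102 lower.

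Called probes spanned the range of signal, but in unequal shares. Of the 1285 tested probes with the lowest mean over the 8 arrays, 6.46% were higher and 1.63% lower in September. The next 1285 had 9.42% higher and 10.3% lower, the 1284 above them 10.7% higher and 8.96% lower, and the brightest 1285 had 3.58% higher and 4.44% lower. Calls were thus more frequent at middle signals than at either end, and the dimmest probes rarely had a called fall. The means of the dimmest group ran from -12.5 to -9.9, near the lowest signals above background. This leaves little room to measure a fall there. The median SE was 0.737 log2 units in the dimmest of these groups and 0.226 in the brightest.

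**Figure D1:**
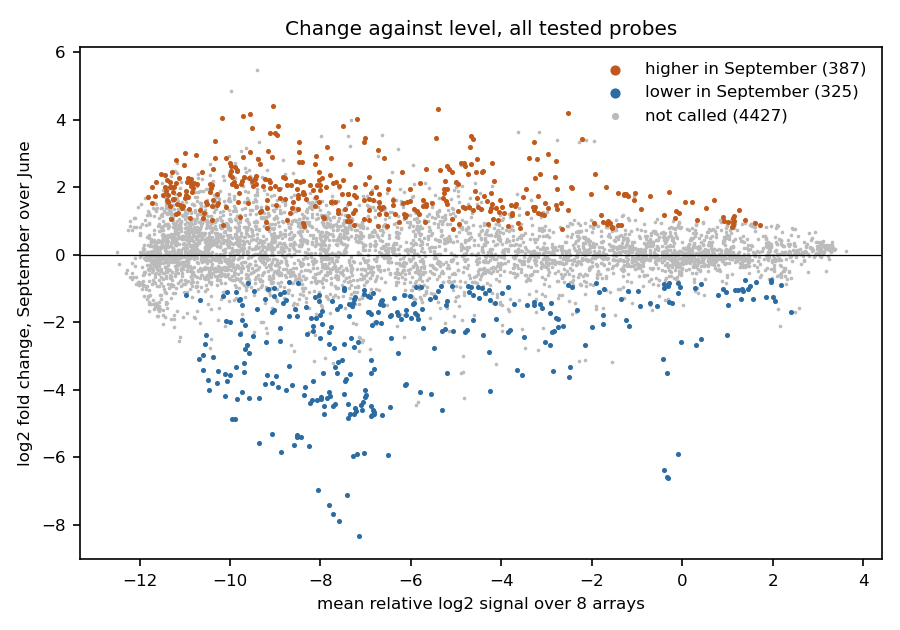
Each point is 1 of 5139 tested probes, with its mean relative log2 signal over the 8 arrays on the horizontal axis and the log2 fold change, September over June, on the vertical axis. The 387 probes called higher reach a log2 fold change of 4.40, while the 325 called lower reach -8.33.

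Some of these transcripts were measured above background in 1 season only. Among the rises, 90 probes had no June array well above background, and 7 of the 90 were above it on all 4 September arrays. For those 7, of 6 accessions, the September signal was at least 2.99-fold to at least 7.51-fold higher, counted from the lowest signal above background on each June array or the probe's own signal if higher. Among the falls, 38 probes were not well above background on any September array, and 34 of them were above it on all 4 June arrays. For those 34, of 19 accessions, the September signal was lower by at least 1.25-fold to at least 101-fold, with a median bound of 5.47-fold. The bounds for rises and falls hold only for the background correction of the main fit. The filter also shaped these counts, since it kept probes for being well above background on arrays of any season. A tested probe without such a June array had passed through September or February arrays. One without such a September array had passed through June or February arrays. How many of all tested probes lacked such arrays in June or in September was not counted, so the 90 and the 38 have no background share.

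Most accessions had several probes, which gives a check within each array, although probes of a transcript share the RNA that was hybridised. Calls pointed one way in nearly all accessions, with 223 only higher, 156 only lower and 4 with a probe called each way. Those 4, named after their values were seen, were EY434011, EY435297, EY435623 and EY436418. An accession with 1 called probe cannot have calls both ways, and accessions with more calls were not counted apart. The counts of accessions pointing one way are therefore not a check by themselves. Of 863 accessions with at least 3 tested probes, 208 had a call, and in 59 every tested probe was called in the same direction, higher in 29 and lower in 30. In 28 of the 59 all probes were also above background on all 8 arrays, and these had median log2 fold changes of 1.17 to 2.93 in the 17 that were higher and -6.39 to -1.08 in the 11 that were lower.

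The largest fall among those 28 was that of AF508224. Its brightest probe read 1.50 and 1.52 in September females and 1.73 and 1.49 in September males, against 3.20 and 2.93 in June females and 3.49 and 3.42 in June males. All 4 September arrays lay below all 4 June arrays, and the September values lay close together. The September mean was 1.56 ± 0.12 and the June mean 3.26 ± 0.25 (SD, n = 4 each), which is 3.25-fold lower in September (log2 fold change -1.70, SE 0.183, adjusted p = 0.00699). Its other 4 probes, which were dimmer, fell by far more, with log2 fold changes of -6.61 to -5.91. The 5 probes of AF508224 thus did not give the same size of change, and its fold change depends on the probe read.

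One of those probes was printed in 25 spots, so its array values are averages over many spots. It read -2.71 and -4.94 in September females and -3.04 and -3.81 in September males, against 3.04 and 2.73 in June females and 3.09 and 3.09 in June males. The September mean was -3.62 ± 0.99 and the June mean 2.99 ± 0.17 (SD, n = 4 each), which is 97.8-fold lower in September (log2 fold change -6.61, SE 0.526, adjusted p = 0.00295). AF508224 thus fell in both sexes, and its June values were close together.

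EY434025 had the next largest fall of the 28, and all 4 of its tested probes were lower, with log2 fold changes of -4.14 to -2.27. Its brightest probe read -6.70 and -4.87 in September females and -7.04 and -6.52 in September males, against -2.21 and -3.00 in June females and -1.58 and -2.18 in June males. The September mean was -6.28 ± 0.97 and the June mean -2.24 ± 0.58 (SD, n = 4 each), a 16.5-fold fall (log2 fold change -4.04, SE 0.482, adjusted p = 0.00846). The seasons did not overlap, and September female replicate 2 was the highest of the September arrays. The 2 February arrays read -8.38 in the female and -6.43 in the male, near or below the September arrays.

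AJ517685 had the largest rise of the 28, and all 4 of its probes were higher in September by 2.79 to 3.34 log2 units. Its brightest probe read -1.21 and -1.04 in September females and -2.45 and -0.86 in September males, against -4.24 and -3.78 in June females and -4.49 and -4.19 in June males. The seasons did not overlap, with September male replicate 1 the lowest of its season. The September mean was -1.39 ± 0.72 and the June mean -4.18 ± 0.29 (SD, n = 4 each), which is 6.90-fold higher in September (log2 fold change 2.79, SE 0.392, adjusted p = 0.0129).

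EY433655, the other named rise, was higher in all 4 of its tested probes, by 2.64 to 3.42 log2 units. Its brightest probe read -3.40 and -3.15 in September females and -3.03 and -2.94 in September males, against -6.19 and -5.09 in June females and -6.47 and -6.10 in June males. The 4 September arrays lay close together and all above the June arrays. The September mean was -3.13 ± 0.20 and the June mean -5.96 ± 0.61 (SD, n = 4 each), which is 7.12-fold higher in September (log2 fold change 2.83, SE 0.302, adjusted p = 0.00696). The slide block leaves 1 September array per sex, so only its log2 fold changes are given here. They were -4.63 for EY434025, -1.64 for AF508224, 2.35 for AJ517685 and 2.75 for EY433655. Over all alternatives the adjusted p reached 0.049 for EY434025, 0.13 for AF508224, 0.074 for AJ517685 and 0.073 for EY433655.

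**Figure D2:**
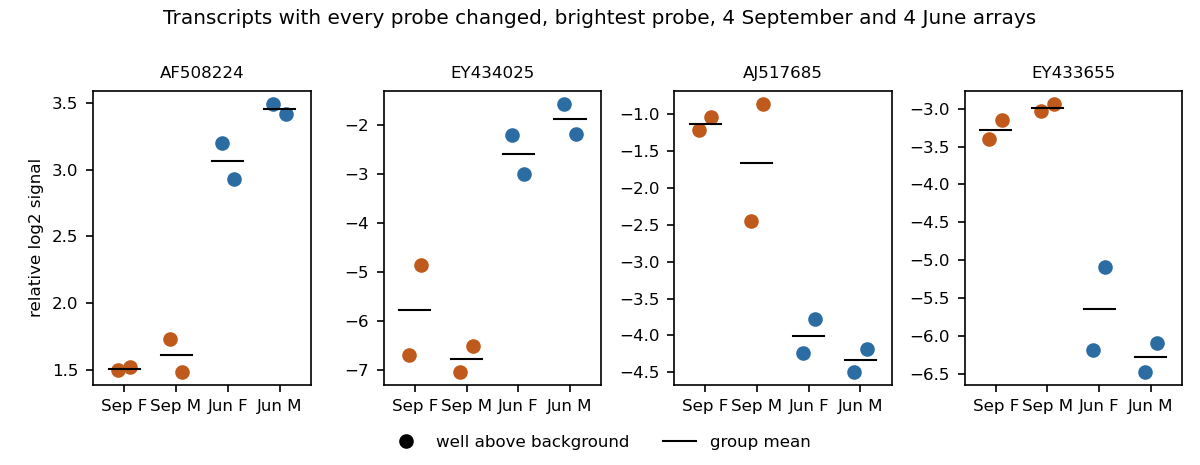
Points are the relative log2 signals of the 4 September arrays and the 4 June arrays for the brightest probe of each transcript, with females (F) and males (M) apart and a line at each group mean. The September arrays lie below the June arrays for AF508224 and EY434025 and above them for AJ517685 and EY433655, with no overlap.

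The array holds 22 probes printed in 25 spots each, of which 14 were tested. In September 3 of the 14 were lower and 0 were higher, against 6.32% lower and 7.53% higher among all tested probes. Besides AF508224 these were AF508222 and AF082863. The 25-spot probe of AF508222 read -11.15 and -10.30 in September females and -11.71 and -11.75 in September males, none of them well above background, against -5.83 and -6.46 in June females and -5.19 and -5.78 in June males. Its September signal was at least 22.6-fold lower (log2 fold change -5.41, SE 0.303, adjusted p = 0.00163), and all 6 tested probes of AF508222 were lower, with log2 fold changes of -5.96 to -5.33. AF508222 was thus detected in June and not well above background in September in this probe.

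AF082863 changed much less but with little spread. Its 25-spot probe read -1.01 and -1.03 in September females and -1.08 and -0.84 in September males, against 0.52 and 0.33 in June females and 0.45 and 0.36 in June males. This is 2.65-fold lower in September (log2 fold change -1.40, SE 0.179, adjusted p = 0.01), and all 4 tested probes of AF082863 were lower. The 11 tested 25-spot probes without a call had log2 fold changes of -4.45 to 2.32.

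Accessions carry letter prefixes assigned by the sequence databases, and the calls were counted by prefix. This grouping was made after the values were seen and carries no test. Of the 3803 tested probes with the prefix EY, 323 (8.49%) were higher and 199 (5.23%) lower in September, near the 7.53% and 6.32% of all tested probes. Of the 370 with AJ, 40 (10.8%) were higher and 22 (5.95%) lower. Of the 828 with AM, 23 (2.78%) were higher and 71 (8.57%) lower. The prefixes AF, AY and DQ together had 69 tested probes of 21 accessions. Of these, 32 probes (46.4%) of 10 accessions were lower and 0 higher, beside 6.32% lower among all tested probes. Among all 2198 tested accessions 160 had a lower probe. The 32 probes include 5 of AF508224, 6 of AF508222 and 4 of AF082863, which were described above. The prefix count is thus not separate from those transcripts. Another 69 tested probes with other prefixes or names had 1 call in each direction.

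Many of the AM probes that were lower belong to a block of adjacent accessions. Ordered by number, the tested accessions from AM230045 to AM230059 numbered 12, and 11 of them had probes that were lower in September. This block too was found after the values were seen. Of its 35 tested probes 31 were lower and 0 higher, which is 43.7% of the 71 AM probes that were lower. Outside the block 40 of 793 AM probes (5.04%) were lower. The 31 probes had log2 fold changes of -4.83 to -2.57, with a median of -4.26, and adjusted p of 0.00173 to 0.0452. In females the median was -4.35 and in males -4.23. None of the 31 was above background on all 4 September arrays, so these fitted values rest in part on September signals that were not measured, most of all in females. Beyond each end of the block, the 16 tested probes of 9 neighbouring accessions had 0 calls in limma (0 at an unadjusted p under 0.05) and log2 fold changes of -0.36 to 1.24. Their SE reached 1.785. The ends of the block were set where the calls stop, so uncalled neighbours follow in part from that choice and are no check of the block.

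The 31 probes of the block were nearly all above background in June and on the September male arrays, and mostly not on the September female arrays. Their median relative signal was -11.20 and -10.18 in September females and -8.95 and -9.52 in September males, against -5.73 and -6.79 in June females and -5.65 and -4.47 in June males. Above background were 10 and 0 of the 31 on the September female arrays and 28 and 29 on the September male arrays, against 31 and 30 on the June female arrays and 31 and 31 on the June male arrays. All September medians thus lay below all June medians. The February medians were -7.50 in the female, between the seasons, and -6.49 in the male, within the range of the June arrays. Leaving out 1 array at a time left 22 to 30 of the 31 called, with the fewest without June female replicate 1, and the slide block left 12 called at a median of -4.45. With the normexp background correction limma called 0 of the 31, with 22 at an unadjusted p under 0.05 and a median of -2.21, and 86 probes in all. AM230052, inside the block, had no called probe, and its 3 tested probes had log2 fold changes of -1.19 to -0.17. In males these probes were at -2.47, -2.78 and -0.23, against 0.09, 0.925 and -0.10 in females. Whether these accessions share sequence, so that their probes read the same RNA, was not tested.

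Adjacent runs as long as this were not seen among the rises. In number order, the longest run of neighbouring tested accessions with a call in one direction was 6 among the falls and 3 among the rises, and both long runs of falls lay in this block, broken by AM230052.

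**Figure D3:**
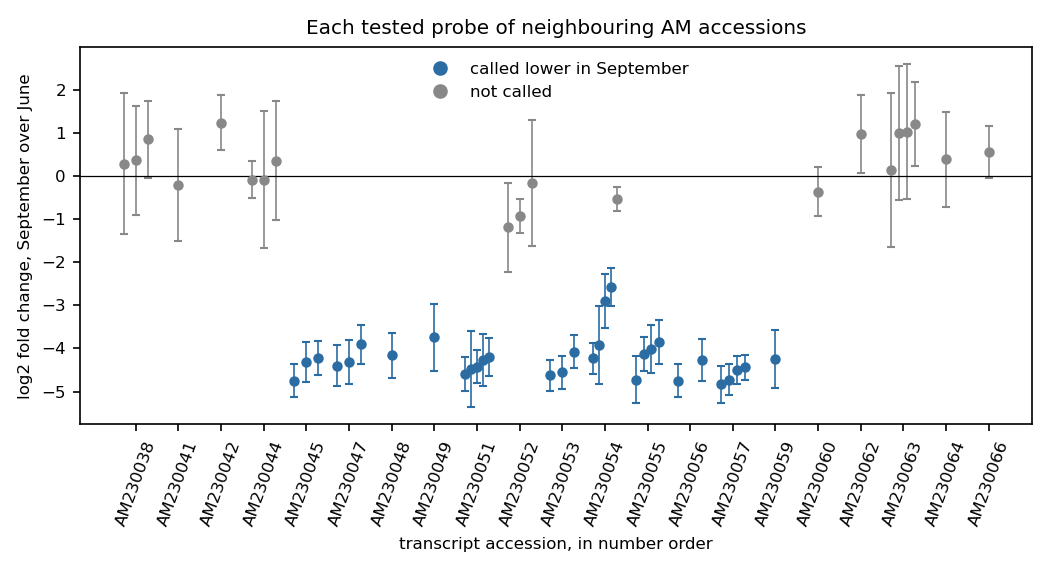
Each point is a tested probe of AM accessions in number order, with its log2 fold change, September over June, and SE as the bar. The 31 probes called lower lie between -4.83 and -2.57, while the 16 probes of neighbouring accessions lie between -0.36 and 1.24.

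Within each sex the test rests on 2 arrays against 2 and fewer probes passed. In females the calls comprised 155 probes (3.02%) of 90 accessions, with 48 (0.934%) higher in September and 107 (2.08%) lower. In males they comprised 195 probes (3.79%) of 111 accessions, with 71 (1.38%) higher and 124 (2.41%) lower. The falls outnumbered the rises in each sex, while over both sexes the rises outnumbered the falls. Among probes above background on all 8 arrays, fitted alone, the rises outnumbered the falls in each sex too, with 121 higher and 94 lower in females and 220 higher and 128 lower in males. Leaving out 1 array left 0 to 497 calls in females and 0 to 268 in males. There were 0 calls in females without either June female array (593 without replicate 1 and 890 without replicate 2 at an unadjusted p under 0.05), and 0 in males without either June male array (866 without replicate 1 and 778 without replicate 2).

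The sexes moved the same way where changes were called. The calls of both sexes shared 104 probes of 52 accessions, 15 of them higher and 89 lower, which is 67.1% of the female and 53.3% of the male calls, and all 104 agreed in direction. Of the 51 probes called in females but not in males, 49 had the same sign in males, and of the 91 called in males but not in females, 83 had the same sign in females. Over all tested probes 67.2% shared a sign. The log2 fold changes of the sexes, which come from separate arrays, correlated at r = 0.57 over 5139 probes and at 0.637 over the 2759 probes above background on all 8 arrays. Probes are not independent replicates, and all arrays share the scaling. In each sex the second September array also lay off the slide and scan date of the June arrays. How far this shared layout adds to the agreement of the sexes was not tested.

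Of the probes called over both sexes, 382 of the 387 higher and all 325 lower ones had the same direction in females and in males. The median rise was 1.77 log2 units in females and 1.85 in males, and the median falls were -2.03 in females and -1.97 in males. These medians describe probes picked for their change over both sexes.

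**Figure D4:**
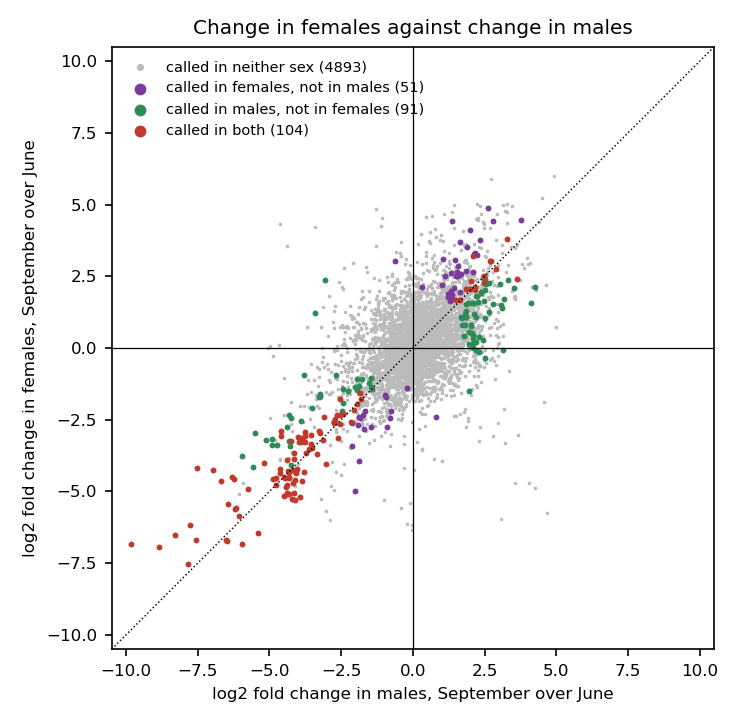
Each point is a tested probe, with its log2 fold change, September over June, in males on the horizontal axis and in females on the vertical axis, and the dotted line marks equal change. The 104 probes called in both sexes, 15 higher and 89 lower, all lie in the quadrants of equal sign.

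The test of season by sex, which asks whether the change from June differed between females and males, called 0 of 5139 probes (0.0%) in limma, with 237 at an unadjusted p under 0.05 and a smallest adjusted p of 0.827. The lists called in only 1 sex are therefore not shown to differ between the sexes. The smallest unadjusted p in each direction, neither of them called, belonged to EY435654 (log2 fold changes of 3.02 in females and -0.62 in males, a difference of 3.65) and to EY434408 (-1.50 in females and 1.96 in males, a difference of -3.46). Both were dim: EY435654 averaged -10.59 in September and -11.79 in June, and EY434408 averaged -10.10 in September and -10.33 in June.

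Among the largest falls called in females, EY435123 read -13.15 and -10.35 in September females and -12.94 and -9.83 in September males, against -3.87 and -4.58 in June females and -3.86 and -3.23 in June males. It was well above background on 1 of 4 September arrays and on 4 of 4 June arrays. In females it was at least 42.8-fold lower in September (log2 fold change -7.52, adjusted p = 0.0483). Of its 5 tested probes 2 were lower over both sexes, and their log2 fold changes ran from -7.68 to -0.96, so the probes of this transcript differed widely.

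EY434173 had the deepest fall over both sexes of any called probe, and both of its tested probes were lower. It read -10.32 and -10.04 in September females and -11.70 and -13.22 in September males, against -2.99 and -3.73 in June females and -2.25 and -2.99 in June males. Its log2 fold change was -6.82 in females (SE 0.602, adjusted p = 0.0168), where 1 of the 2 September arrays was above background, and in males, where no September array was above background, it was at least 330-fold lower (adjusted p = 0.00606). The February arrays parted, at -10.71 in the female, not well above background, and -6.55 in the male.

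The 2 named rises in females were dim transcripts that were not well above background in June. EY436530 read -8.28 and -6.81 in September females and -8.33 and -7.12 in September males, against -12.48 and -12.37 in June females and -10.55 and -10.16 in June males. In females it was at least 7.05-fold higher (adjusted p = 0.0229). EY435567 read -8.23 and -7.02 in September females and -8.47 and -6.89 in September males, against -12.41 and -11.76 in June females and -10.86 and -12.04 in June males. In females it was at least 6.66-fold higher (adjusted p = 0.0471). Neither was called in males, where the log2 fold change was 2.63 for EY436530 (adjusted p = 0.0773) and 3.76 for EY435567 (adjusted p = 0.0544).

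Among transcripts not already named for females, EY434180 had the largest called fall in males, with all 5 of its tested probes lower in each sex. Its brightest probe read -11.48 and -10.17 in September females and -11.68 and -10.60 in September males, against -3.86 and -4.39 in June females and -3.37 and -3.81 in June males. The log2 fold change in males was -7.55 (SE 0.594, adjusted p = 0.00776), where 1 of the 2 September arrays was above background, and in females EY434180 was at least 46.0-fold lower. The named probes of EY434173 and EY435123 had fitted log2 fold changes of -9.84 and -7.84 in males, below this brightest probe of EY434180. The 5 probes of EY434180 ran from -8.85 to -7.53 in males, so EY435123 did not exceed all of them.

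EY433996 had little spread between the replicates of each season and sex, and the smallest adjusted p over both sexes of any probe. It read -9.35 and -9.39 in September females and -9.76 and -9.45 in September males, against -3.92 and -3.97 in June females and -3.15 and -3.15 in June males. The log2 fold change in males was -6.45, 87.7-fold lower (SE 0.252, adjusted p = 0.00239), and in females -5.43 (adjusted p = 0.00477). September female replicate 2, at -9.39, was not well above background. The September spread and the values in females and over both sexes rest in part on that reading. Only 1 of its 3 probes was tested.

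The named rises in males were EY435358 and EY436691. EY435358 read -5.67 and -6.44 in September females and -6.89 and -6.05 in September males, against -7.95 and -8.44 in June females and -11.17 and -10.27 in June males. In males, where June was not well above background, it was at least 16.0-fold higher (adjusted p = 0.0194), and all 3 of its probes were higher over both sexes. EY436691 read -9.67 and -10.38 in September females and -9.16 and -8.67 in September males, against -12.60 and -12.27 in June females and -12.85 and -12.28 in June males. It was at least 2.93-fold higher in males (adjusted p = 0.0161). Its June values were not well above background in either sex. The bounds given for single transcripts hold only for the background correction of the main fit. With normexp the log2 fold changes in females were -3.26 for EY435123, 2.77 for EY436530 and 2.47 for EY435567. In males they were 2.40 for EY435358 and 0.97 for EY436691. Each is smaller than the bound given, and the other bounds were not checked this way. Many of these calls within a sex were lost in the 20 alternatives run for each: 17 for EY435567, 14 for EY435123, 10 for EY436530 and 7 for EY434173 in females, and 9 for EY435358, 9 for EY436691, 4 for EY434180 and 3 for EY433996 in males.

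**Figure D5:**
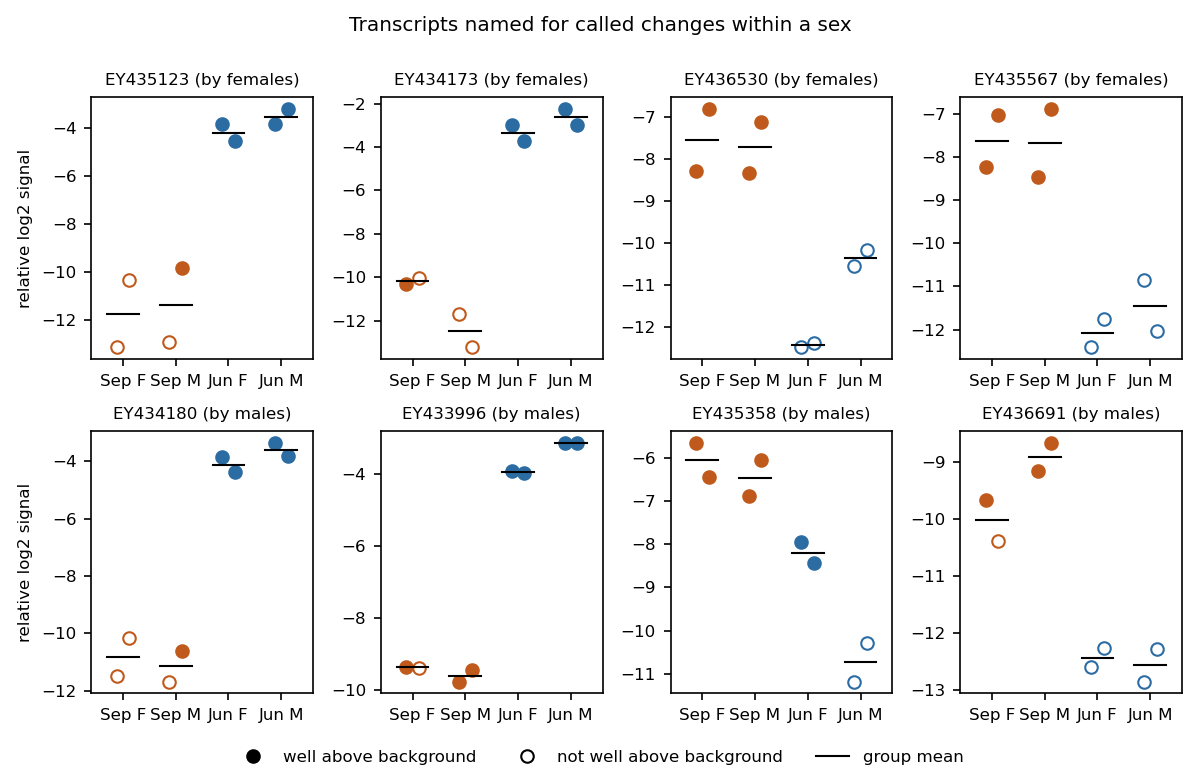
Points are the relative log2 signals of the 4 September arrays and the 4 June arrays for the transcripts named for females (upper row) and for males (lower row, leaving out those of the upper row), and open points were not well above background. The transcripts that were lower read -4.58 to -2.25 on the June arrays, while those that were higher were dim in June and mostly not above background.

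RXR, the retinoid X receptor, is a nuclear receptor that pairs with other nuclear receptors to control transcription. Of its 6 probes on the array 2 were tested, and neither was called. RXR probe 2 read -10.25 and -10.59 in September females and -10.53 and -10.69 in September males, against -11.29 and -11.08 in June females and -10.14 and -11.13 in June males, which gave a log2 fold change of 0.39 with an adjusted p of 0.44 (SE 0.281). RXR probe 3 read -10.39 and -9.03 in September females and -10.53 and -9.86 in September males, against -11.44 and -11.01 in June females and -10.45 and -10.71 in June males, which gave a log2 fold change of 0.95 with an adjusted p of 0.164 (SE 0.376). Its signal lay near the limit of detection. Over all 6 probes, 6 of 24 readings in September and 3 of 24 in June were well above background. Without September female replicate 1, RXR probe 3 was called higher (1.29, adjusted p = 0.044).

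The 2 February arrays place these changes in the year, with 1 array per sex and no replicate check. Of the 387 probes higher in September, February lay nearer to September in 36 (9.3%), against 28.6% of the uncalled probes with September above June. Of the 325 lower probes, February lay nearer to September in 107 (32.9%), against 42.1% of the uncalled probes with September below June. On a scale with June at 0 and September at 1, the median February position was 0.0 for the rises and 0.34 for the falls. Among uncalled probes it was -0.08 with September above June and 0.23 with September below June. The probes that were higher in September thus mostly stood near their June level in February, while many of those that were lower in September were partly lower in February too. The uncalled medians lay in the same order, so this contrast of rises and falls is not particular to the called probes. The positions are a description, since the probes were chosen for the distance between June and September. The February and June arrays also shared 1 slide and scan date, which the second September array of each sex did not. How far this places February nearer to June was not tested.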

How the data were processed

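Per the file headers, the authors' spot intensity values are processed signals from Agilent Feature Extraction 10.5.1.1, corrected for background on each array. A deposited table of the authors' log2 values was also given, whose scaling and centring between arrays are not given in the sources used here. Its columns correlated with the log2 signals of the same arrays at 0.988 or higher and had medians of 2.74 to 3.02, and it served as an alternative.

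Control spots were left out, log2 signals were averaged per probe without outlier-flagged spots where another remained, and the stated percentile was subtracted. No spot was saturated. A probe with several spots counted as well above background when every spot used was. limma 3.58.1 (R 4.3.3) fitted 1 mean per season and sex to all 10 arrays, with 4 residual and 1.65 prior degrees of freedom and Benjamini-Hochberg adjustment over 5139 probes. The script was tested on simulated data. Depth has no counterpart here: the number of arrays limits precision. Normexp correction used median instead of mean spot signals. Figures were drawn with matplotlib 3.10.9.

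Transcripts were named by rule. In the main comparison these were 2 rises and 2 falls with the largest median change. They came from accessions with at least 3 tested probes, all called one way and above background on all 8 arrays. Within females and then within males, the 2 largest called changes each way were taken, leaving out accessions already named. Each accession was ranked there by its brightest called probe. Another probe of EY434180 had a log2 fold change of -6.93 in females, below the -6.82 of EY434173. For season by sex, the smallest unadjusted p each way was taken, and RXR was named too. The members and lists were chosen with earlier results of these data known. The alternatives were other scalings, background corrections, filters, models, blocks and single arrays left out.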

Additional observations from a re-analysis of the deposited data

Results flagged for a closer look

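For the brightest probe of AF508224, the 4 September arrays read 1.73 in male replicate 1 and 1.49 to 1.52 in the other 3. The gap of that array from the next was 0.882 of the range of the 4. Of 32 such checks of 4 arrays, 1 gave an array this far from its group, and chance alone gives about 1 in 20. The cause was not tested.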

How the results depend on the processing

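The number of calls changed with the processing, and the cause was not tested. Against 712 calls over both sexes, the 75th percentile over all probes gave 290 (114 higher and 176 lower, against 387 and 325), normexp 86 (46 higher, 40 lower, with the median of all probes at 0.47), no filter on dim probes 122 (20 higher, 102 lower), the slide as a block 128, the scan date as a block 261 (91 higher, 170 lower), and 1 value per accession, with fewer units tested, 247 of accessions. The authors' deposited table gave 669, quantile normalization 529, the additive model 954 and spike-in scaling, chosen after seeing the data, 532 (312 higher, 220 lower). Under normexp 691 of the 712 kept their direction. Leaving out 1 array gave 144 to 934. In all 8 of those fits, the 4 other scalings, and the slide block, 77 probes were called (7 higher, 70 lower, 39 accessions), and adding normexp left 29. In females, against 155 calls, these settings gave 70 with the percentile over all probes (4 higher, 66 lower), 99 with quantile normalization (12 higher, 87 lower), 0 with normexp (710 at an unadjusted p under 0.05), 0 with no filter (857), 0 with the slide block (848), 34 with the scan date block, 56 per accession, 46 with spike-in scaling, 215 with probes above background on all 8 arrays (121 higher, 94 lower), and 0 to 497 leaving out 1 array. In males, against 195 calls, they gave 99 with the percentile over all probes (7 higher, 92 lower), 8 with normexp, 13 with no filter, 348 with probes above background on all 8 arrays (220 higher, 128 lower), 22 with the slide block, 88 with the scan date block, 58 per accession, 87 with spike-in scaling, and 0 to 268 leaving out 1 array. Season by sex gave 0 calls under every alternative run, and RXR 0 to 1 call leaving out 1 array and 0 otherwise. Replicate numbers did not pair the arrays (correlations of deviations -0.327 to 0.342), and the replicate block gave 514 calls over both sexes, 61 in females, 66 in males and 0 for season by sex. For the named transcripts, 252 of 336 alternative values kept direction and call, 81 lost the call, 1 gained it and 2 reversed: EY434408 at 0.40 under normexp and RXR probe 2 at -0.10 under quantile normalization, both uncalled. Dim probes are limited by the lowest signal above background, -8.32 on September female replicate 2, -11.25 to -10.72 on the other September arrays and -10.75 to -10.19 on the June arrays.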
